A study of Mus musculus with 8 samples.

Results

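Interferon regulatory factors (IRFs) and signal transducers and activators of transcription (STATs) are the transcription factors through which interferons and many cytokines reach the genome. The genes described here are 9 members of the 2 families, Irf1, Irf2, Irf4, Irf5, Irf7, Irf8, Irf9, Stat2 and Stat3, taken by name from a table of 28295 genes. All 9 passed the filter on low values, a mean of at least 0.5 FPKM (mapped fragments per kilobase of a gene, scaled to 1000000 fragments in the library), as did 14400 genes in all. They were measured by poly(A) RNA sequencing in epididymal white fat, the visceral fat pad beside the epididymis, of male mice. All mice had eaten a Western diet for 8 weeks, had fasted for 6 h and carried Cul3-flox/flox alleles, that is, a Cul3 gene with loxP sites on both copies. The WT group, 4 libraries (WT1 to WT4), had no further allele. The KO-labelled group, 4 libraries (KO1 to KO4), also carried AdipoQ-Cre, a Cre recombinase under the Adipoq promoter, which is active in adipocytes, so that the other cells of the pad keep Cul3. The sources used here give no age, and no label ties a library to an animal, so p-values measure the spread between libraries.

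Cul3, which encodes the cullin 3 scaffold of a family of ubiquitin ligases, did not fall where the labels say KO. It stood at 11.4, 9.66, 12.4 and 11.5 FPKM in WT1 to WT4 and at 10.6, 11.2, 13.2 and 13.0 FPKM in KO1 to KO4, with overlapping groups (limma log2 fold change 0.09 ± 0.10, adjusted p = 0.520, 95% interval of the ratio 0.908 to 1.25). A value per gene gives no view of single exons, and whole fat holds Cul3 mRNA of cells without Cre, so the directions below are those of the libraries labelled KO against WT. Depth, as reads in listed genes recovered from the FPKM values, ran from 15.2 to 19.7 M per library (M, 1000000). Listed genes took 62.6% to 66.1% of the FPKM denominator in KO1 to KO4, against 74.1% to 78.7% in WT. The scale therefore matters. Scaling every library to a sum of 1000000 moved the median over all genes by 0.23 on the log2 scale, and scaling to the reads in listed genes moved it by 0.21. Of 14400 genes tested, 1689 were called higher and 2683 lower, so that 38.6% of the calls were higher. Scaled to a sum of 1000000, the counts were 4217 and 1180 (78.1% higher). The other scalings changed less. Median-of-ratios scaling moved the median by 0.01 and gave 1778 higher and 2543 lower. Quantile normalization moved it by 0.02 and gave 1833 and 2092. Both rescalings, below, are those to a sum of 1000000 and to the reads in listed genes.

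The labelled tissue was checked against marker lists. Over all genes tested, 11.7% were called higher and 18.6% lower. Of 12 adipocyte markers, 11 fell, and their summed level was 4929 to 8028 FPKM in WT and 2886 to 3812 FPKM in the KO-labelled libraries. Of 9 endothelial markers, 8 fell. Of 18 macrophage markers, 6 rose and none fell, with a summed level of 663 to 1886 FPKM in WT and 911 to 2159 FPKM in the KO-labelled group. WT4 was the highest WT library for 17 of the 18, and KO4 the lowest KO-labelled library for all 18. Liver markers summed to 128 and 465 FPKM in WT1 and WT2 and to 6.97 to 35.3 FPKM in the other 6 libraries, and epididymal epithelium markers to 55.6 FPKM in WT2, 220 FPKM in KO1 and 2.15 to 15.2 FPKM elsewhere. In whole tissue, fewer cells of a type and less RNA per cell cannot be told apart. Calls of the 9 members that change without WT1 and WT2 or without WT4 and KO4 are therefore also given below. For the other genes and lists, not every such change is named.

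In the textbook scheme, type I interferon makes STAT2 join IRF9 in the complex ISGF3, which binds interferon-stimulated response elements (ISREs), while other STAT pairs bind gamma-activated sequences (GAS). IRF3 is present before infection and starts interferon production, IRF7 is itself made in response to interferon and amplifies it, and IRF1 and IRF2 act as an activator and an attenuator at overlapping sites. IRF4, IRF5 and IRF8 work mainly in leukocytes, although IRF4 also acts in fat cells during fasting, and STAT3 carries signals of interleukin-6, leptin and related cytokines.

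Because ISGF3 and STAT pairs are known by the DNA they bind, the 250 bases before each RefSeq start site (12 windows, all 9 members, build GRCm38.p6) were searched on both strands for the ISRE letters GAAANNGAAA and the GAS letters TTCNNNGAA. The following windows hold a match, or, for Irf7, belong to the gene with the largest difference. They run 5′ to 3′ on the gene's strand, end just before the RefSeq start or, for Irf2 and Irf7, just before the earlier GENCODE start, and have the matches in capitals.
Irf1 (chr11:53769764-53770013, plus strand): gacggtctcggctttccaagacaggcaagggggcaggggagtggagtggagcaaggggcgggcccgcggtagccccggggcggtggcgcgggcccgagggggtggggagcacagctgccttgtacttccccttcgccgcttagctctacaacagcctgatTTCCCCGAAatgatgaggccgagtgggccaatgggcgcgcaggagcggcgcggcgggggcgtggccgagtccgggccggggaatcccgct
Irf2 (chr8:46739495-46739731, plus strand): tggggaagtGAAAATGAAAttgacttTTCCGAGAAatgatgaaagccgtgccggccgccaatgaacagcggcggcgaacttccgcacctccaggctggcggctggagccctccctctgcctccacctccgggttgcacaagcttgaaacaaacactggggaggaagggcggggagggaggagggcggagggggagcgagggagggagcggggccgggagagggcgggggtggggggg
Irf7 (chr7:141266482-141266674, minus strand): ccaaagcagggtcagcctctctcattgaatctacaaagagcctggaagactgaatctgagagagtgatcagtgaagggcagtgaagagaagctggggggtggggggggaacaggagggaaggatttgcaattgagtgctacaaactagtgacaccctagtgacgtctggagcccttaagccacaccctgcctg
Irf8 (chr8:120736108-120736357, plus strand): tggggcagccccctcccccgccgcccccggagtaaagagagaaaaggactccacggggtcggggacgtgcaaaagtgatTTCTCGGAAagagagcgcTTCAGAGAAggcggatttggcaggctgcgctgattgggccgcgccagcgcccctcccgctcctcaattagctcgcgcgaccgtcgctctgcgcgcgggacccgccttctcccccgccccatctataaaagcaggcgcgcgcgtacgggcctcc
Stat2 (chr10:128270248-128270497, plus strand): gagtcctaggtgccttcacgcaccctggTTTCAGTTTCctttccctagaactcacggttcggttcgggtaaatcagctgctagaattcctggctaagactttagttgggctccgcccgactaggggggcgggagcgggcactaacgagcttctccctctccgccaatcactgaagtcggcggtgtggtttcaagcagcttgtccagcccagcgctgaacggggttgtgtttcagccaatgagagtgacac

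An ISRE match was found for 2 of 9 members, Irf2 and Stat2, the latter on the reverse strand as TTTCAGTTTC, 222 to 213 bases before the RefSeq start. A GAS match was found for 3 members. Irf1 held TTCCCCGAA at 90 to 82 bases before the start, Irf2 held TTCCGAGAA and Irf8 held TTCTCGGAA and TTCAGAGAA. Counted by gene, as for the members, 3.46% of all 27025 genes held the ISRE letters and 8.13% the GAS letters. Over all 32851 windows of this length the shares were 2.98% and 7.02%. A shorter core, AANNGAAA, matched 23.9% of all genes (21.3% of windows) and, of the members, Irf2 and Stat2, where it overlaps the ISRE. The letters do not occur in the windows of Irf4, Irf5, Irf7, Irf9 and Stat3. The windows of Irf9, and the later windows of Irf1 and Irf8, lie wholly inside the GENCODE gene. For Irf9 the bases before the GENCODE start were therefore not searched. These matches describe the sequence and do not show binding. The members with a match fell on both sides of the test described below. Stat2 and Irf8 were higher, Irf1 and Irf2 did not pass.

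Of the 9 members, 6 rose in the KO-labelled fat, namely Irf7, Irf4, Stat2, Irf8, Irf9 and Stat3, and none fell. Over all genes tested, 30.4% were called, 11.7% as higher and 18.6% as lower. The median log2 fold change was 0.69 over the members and -0.02 over all genes tested. In the same 6 members every KO-labelled library lay above every WT library, which held for 12.1% of all genes tested. Irf1, Irf2 and Irf5 did not pass. The test was limma on log2(FPKM + 0.5), adjusted over all 14400 genes by Benjamini-Hochberg, with a call at an adjusted p under 0.05. Errors of log2 fold changes are moderated standard errors, and those of FPKM means are SDs (n = 4 each). The exact two-sided permutation test of 4 against 4 cannot go below p = 0.0286, and it reached that value in all 6 called members. Groups without overlap must give that value, so it adds nothing to the lack of overlap.

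**Figure D1:**
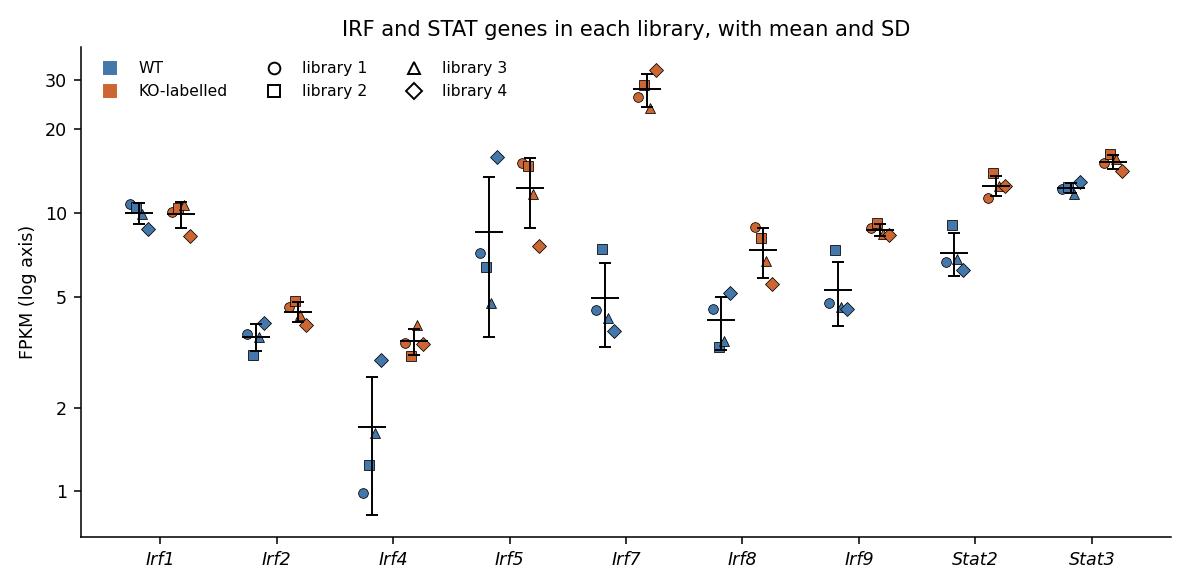
FPKM of the 9 members in each library (log scale), WT and KO-labelled side by side, with group means. Irf7 stands between 3.77 and 7.42 FPKM in WT and between 23.8 and 32.8 FPKM in the KO-labelled libraries, while the groups of Irf1, Irf2 and Irf5 overlap.

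Irf7, the interferon-inducible amplifier of the type I interferon response, had the largest difference of the 9. Irf7 (ENSMUSG00000025498) lies on chromosome 7 at 141262706 to 141266481, minus strand (GENCODE M21, build mm10). It was at 4.50, 7.42, 4.21 and 3.77 FPKM in WT1 to WT4 and at 26.2, 28.8, 23.8 and 32.8 FPKM in KO1 to KO4. Between 350 and 3068 reads lay behind each value. The lowest KO-labelled library was thus well above the highest WT library, WT2. The mean went from 4.97 ± 1.66 to 27.9 ± 3.86 FPKM, a ratio of 5.61 (log2 fold change 2.41 ± 0.19, limma adjusted p = 0.000107). The neighbouring Phrf1, whose exons share 45 bases with Irf7 on the other strand, had a log2 fold change of -0.00. Over 24 alternative settings the log2 fold change of Irf7 ran from 2.23 to 2.68, and it passed in each.

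Stat2 and Irf9, which encode subunits of ISGF3, rose together by less than 1 on the log2 scale. Stat2 (ENSMUSG00000040033, chromosome 10, 128270559 to 128292849, plus strand) was at 6.68, 9.06, 6.84 and 6.23 FPKM in WT1 to WT4. In KO1 to KO4 it was at 11.3, 13.9, 12.5 and 12.5 FPKM (0.77 ± 0.12, limma adjusted p = 0.00193). Irf9 (ENSMUSG00000002325, chromosome 14, 55603571 to 55610030, plus strand) was at 4.76, 7.39, 4.61 and 4.51 FPKM in WT and at 8.86, 9.25, 8.39 and 8.37 FPKM in the KO-labelled group (0.69 ± 0.14, limma adjusted p = 0.00804). In both, as in Irf7, WT2 was the highest WT library and the 4 KO-labelled libraries lay close together. Of 23 genes known as ISGF3 targets, 17 also had their highest WT value in WT2. WT2 also had the highest liver marker level, and the part of liver or epididymal RNA in these values was not tested. Without WT2 the log2 fold changes were 2.60 for Irf7, 0.88 for Stat2 and 0.85 for Irf9. Stat2 and Irf9 passed in all 24 settings. The same-strand gene Rnf31, whose exons share 123 bases with Irf9, had a log2 fold change of 0.19 (limma adjusted p = 0.0958).

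Irf3, the constitutive relative of Irf7, was at 9.15, 10.4, 7.03 and 8.47 FPKM in WT and at 10.3, 8.55, 8.40 and 7.70 FPKM in the KO-labelled libraries. Its groups overlapped (-0.00 ± 0.13, limma adjusted p = 0.998, 95% interval -0.29 to 0.29). Scaled to a sum of 1000000, its sign turned, to 0.26, close to the shift of the median of all genes, and it did not pass. As a description only, since the ratios were chosen after the values were seen, Irf7 over Irf3 was 0.445 to 0.712 in WT, and in KO1 to KO4 it was 2.55 to 4.26. Irf9 over Stat2 overlapped, with means of 0.731 and 0.697, so the mRNAs of these subunits kept about the same proportion to each other. Protein was not measured. Ratios within a library do not change with the scale.

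A list of 8 other family members and IRF2-binding proteins had 7 tested genes, of which 1, a STAT, rose and 1, an IRF2-binding protein, fell. Under both rescalings 4 were higher and none lower, and without WT1 and WT2 the counts were 0 and 0. Stat5b, a growth hormone and cytokine signal carrier, had a log2 fold change of 0.22 (limma adjusted p = 0.0461), a call that was lost in 14 of 24 settings, including without each single library other than WT3. Irf2bp1, a corepressor that binds IRF2, fell by 0.33 on the log2 scale (limma adjusted p = 0.0111). That call was lost under both rescalings and without WT1 and WT2. Stat6, the interleukin-4 signal carrier, had the highest mean FPKM on this list and a log2 fold change of -0.06. Stat4 did not pass the filter on low values.

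**Figure D2:**
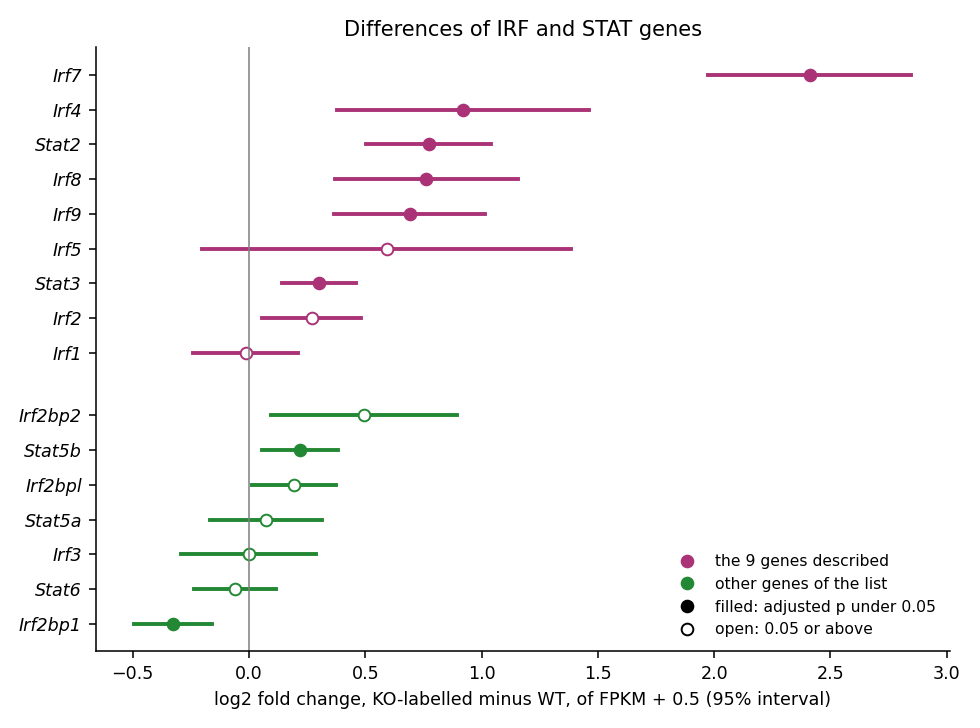
Log2 fold change, KO-labelled minus WT, with 95% intervals from limma, of the 9 members and of the 7 other tested genes, which include IRF2-binding proteins. Irf7 stands apart at 2.41, Stat2, Irf9, Irf8 and Irf4 lie between 0.69 and 0.92, and Irf3 lies at -0.00.

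Irf1 and Irf2, the activator and attenuator of interferon genes, did not pass the test. Irf1 (ENSMUSG00000018899, chromosome 11, 53770014 to 53778374, plus strand) was at 10.8, 10.5, 9.95 and 8.78 FPKM in WT and at 10.1, 10.5, 10.7 and 8.31 FPKM in the KO-labelled libraries, overlapping fully. Its log2 fold change was -0.01 ± 0.10 (limma adjusted p = 0.924, 95% interval -0.24 to 0.21), and it turned to 0.25 when libraries were scaled to a sum of 1000000, again close to the shift of all genes. Irf2 (ENSMUSG00000031627, chromosome 8, 46739732 to 46847458, plus strand) was at 3.69, 3.08, 3.60 and 4.03 FPKM in WT and at 4.61, 4.83, 4.32 and 3.96 FPKM in KO1 to KO4. Of the KO-labelled libraries, only KO4 lay below the highest WT library, WT4 (0.27 ± 0.09, limma adjusted p = 0.0590). Irf2 passed in 7 of 24 settings. Among these were both rescalings, voom on the recovered reads (0.30, adjusted p = 0.0483), leaving out WT4 (0.32, adjusted p = 0.0373) and leaving out KO4 (0.32, adjusted p = 0.0472). Leaving out WT4 and KO4 together gave 0.37 (limma adjusted p = 0.0267).

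Irf4, Irf5 and Irf8, the members best known from leukocytes, showed another order of libraries. WT4 was the highest WT library for each of them, as it was for the macrophage markers. It was the lowest for Irf1, Irf7, Irf9 and Stat2. This place of WT4 was not particular to the leukocyte members. For Irf2 (4.03 and 3.96 FPKM) and Stat3 (13.0 and 14.2 FPKM), too, WT4 was the highest WT library and KO4 the lowest KO-labelled one. Irf8 (ENSMUSG00000041515, chromosome 8, 120736358 to 120756694, plus strand), which directs monocyte and dendritic cell development, was at 4.54, 3.31, 3.46 and 5.18 FPKM in WT. In KO1 to KO4 it was at 8.95, 8.14, 6.73 and 5.58 FPKM (0.76 ± 0.17, limma adjusted p = 0.0119). KO4 was the lowest KO-labelled library and lay just above WT4. Irf4 (ENSMUSG00000021356, chromosome 13, 30749226 to 30766976, plus strand), a factor of lymphocytes, alternatively activated macrophages and fasting fat cells, was the lowest of the 9. It was at 0.984, 1.24, 1.62 and 2.96 FPKM in WT and at 3.41, 3.07, 3.97 and 3.39 FPKM in the KO-labelled group (0.92 ± 0.24, limma adjusted p = 0.0200). Here the KO-labelled libraries lay close together, KO4 included, and the WT libraries were spread more widely, with WT4 the nearest to them.

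Irf5 (ENSMUSG00000029771, chromosome 6, 29526625 to 29541871, plus strand), which drives inflammatory cytokine genes in macrophages, had the widest spread of the 9 relative to its mean in both groups (SDs of 58.1% and 28.2% of the mean). It was at 7.22, 6.42, 4.76 and 15.9 FPKM in WT1 to WT4 and at 15.1, 14.8, 11.7 and 7.65 FPKM in KO1 to KO4. The highest library of all was thus WT4, and the groups overlapped (0.59 ± 0.35, limma adjusted p = 0.229, 95% interval -0.20 to 1.39). Leaving out WT4 gave 0.92 on the log2 scale (adjusted p = 0.0235), and leaving out WT4 and KO4 gave 1.12 (adjusted p = 0.00286). Exons of Tnpo3, on the opposite strand, share 411 bases with Irf5, which is 14.2% of its exon length. Tnpo3 itself had a log2 fold change of -0.07.

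Each member was also set against the macrophage markers of its own library, as its log2(FPKM + 0.5) minus the mean over the 18 markers. That mean was 4.18, 3.95, 4.0 and 5.33 in WT1 to WT4 and 5.56, 5.54, 5.18 and 4.51 in KO1 to KO4, a difference of 0.83 (exact two-sided permutation test, p = 0.0857). Relative to the markers, Irf7 alone of the 9 had no overlap between groups, with a difference of 1.58 (exact permutation p = 0.0286, 0.257 after adjustment over the 9 members). With Adgre1, Csf1r and Cd68 as the only markers it was 1.51 (exact permutation p = 0.0857). It was 0.84 without WT4 and KO4 and 2.12 without WT1 and WT2. Irf5 lay in a narrow band below the markers in all 8 libraries, from -1.61 to -1.16, although its FPKM ranged from 4.76 to 15.9. The differences of Irf4, Irf5 and Irf8 were 0.09, -0.24 and -0.07 (exact permutation p = 0.857, 0.143 and 0.914). Those of Irf9 and Stat2 were -0.14 and -0.06 (exact permutation p = 0.8 and 0.914). The differences of Irf8, Irf9 and Stat2 were not stable in sign. Without WT1 and WT2 they were 0.17, 0.33 and 0.36, and without WT4 and KO4 they were -0.40, -0.74 and -0.67. Irf1, Irf2 and Stat3 had -0.85, -0.56 and -0.53 (exact permutation p = 0.114, 0.114 and 0.2).

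A second way of using the markers was to enter their mean as a covariate in the fit of all genes. Irf7 (2.68), Stat2 (0.88) and Irf9 (0.78) passed in that fit (limma adjusted p = 0.000321, 0.00567 and 0.0238). Irf4 (0.56), Irf8 (0.40) and Stat3 (0.22) did not (adjusted p = 0.156, 0.0582 and 0.0829), and Irf5 was at -0.23. The count of members called higher was then 3 in place of 6. The values of Irf7, Stat2 and Irf9 lay above those without the covariate (2.41, 0.77 and 0.69). WT4, with the highest marker mean in WT, was the lowest WT library for these genes. How far this fit rests on WT4 and KO4 was not tested. Subtraction and covariate differ for Irf9 and Stat2, since the first assumes that a member follows the markers in full. Monocyte markers rose for 4 of 5 tested, dendritic cell markers for 4 of 8, B and plasma cell markers for 1 of 3, T and NK cell markers for 1 of 2 and neutrophil markers for 2 of 3. The summed T and NK cell level was 1.68 to 2.59 FPKM in WT and 4.60 to 7.89 FPKM in the KO-labelled libraries. It covers 10 genes, of which 2 passed the filter. Neutrophil sums were also separate between the groups, while dendritic cell sums and B and plasma cell sums overlapped. Monocyte sums overlapped with a lower range in the KO-labelled group, 49.3 to 128 FPKM in WT and 37.7 to 79.0 FPKM in KO1 to KO4. The tested monocyte marker that did not rise, Fn1 (-0.78, limma adjusted p = 0.140), had the highest mean of its list. The part of any of these cell types in the members' values was not tested.

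**Figure D3:**
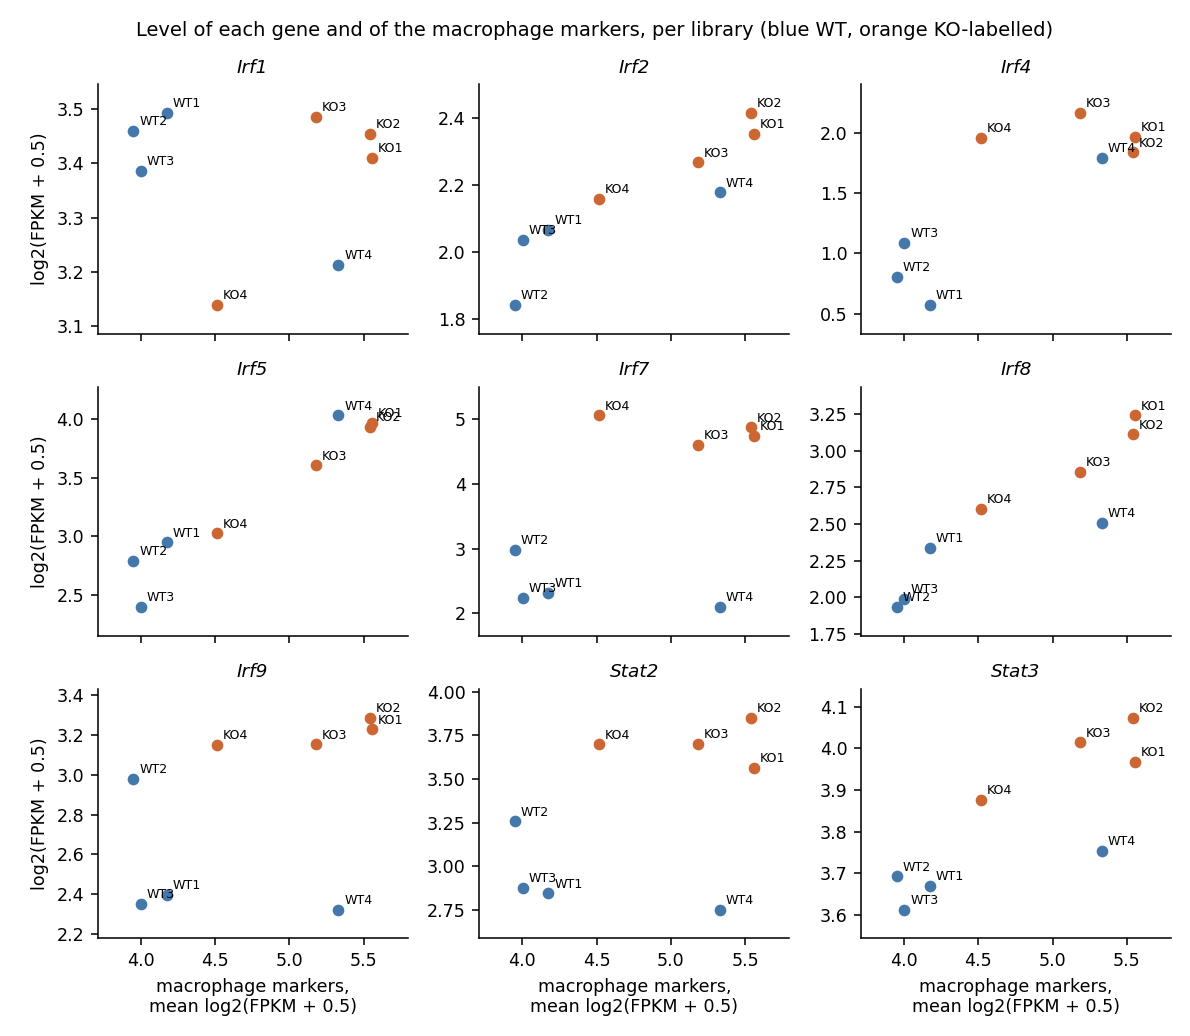
Members' log2(FPKM + 0.5) in each library against the mean log2(FPKM + 0.5) of 18 macrophage markers, WT and KO-labelled libraries marked apart. Irf5 follows the marker level in both groups, whereas Irf7 stands in separate bands, with every KO-labelled library above every WT library.

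Stat3 (ENSMUSG00000004040, chromosome 11, 100885098 to 100939540, minus strand) had the highest mean of the 9 in WT and the smallest of the rises. It was at 12.2, 12.4, 11.7 and 13.0 FPKM in WT1 to WT4 and at 15.1, 16.3, 15.7 and 14.2 FPKM in KO1 to KO4. The groups did not overlap, and the spread within each was small (0.30 ± 0.07, limma adjusted p = 0.0126). Its call was lost with the macrophage covariate and without WT1 and WT2 (0.30, adjusted p = 0.0955). The calls of Irf8 (0.71, adjusted p = 0.0869) and Irf4 (0.54, adjusted p = 0.134) were also lost without WT1 and WT2, where 2 WT libraries remain. Leaving out WT2 alone gave 0.83 for Irf4 (adjusted p = 0.0541), and leaving out KO3 alone gave 0.86 (adjusted p = 0.0590).

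Ranked by mean FPKM, the order in WT was Stat3, Irf1, Irf5, Stat2, Irf9, Irf7, Irf8, Irf2 and Irf4. Only Stat3 and Irf1, and Irf2 and Irf4, had ranges that did not overlap with the next in this order. In the KO-labelled libraries the order was Irf7, Stat3, Stat2, Irf5, Irf1, Irf9, Irf8, Irf2 and Irf4. There Irf7 lay above Stat3, Stat3 above Stat2 and Irf8 above Irf2 without overlap. Irf7 thus moved from the sixth place to the first, and Irf1 from the second to the fifth at nearly the same level.

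The summed FPKM of 8 IRF genes, the 7 members and Irf3, was 47.0 ± 6.14 in WT and 82.8 ± 5.70 in the KO-labelled libraries. Irf7 made up 10.6% ± 3.25 of this sum in WT and 33.9% ± 5.69 in the KO-labelled group, with no overlap (7.04% to 14.9% against 29.9% to 42.2%). Irf1 went from 21.6% ± 3.90 to 12.0% ± 1.28 and Irf3 from 18.7% ± 2.29 to 10.5% ± 0.93, though neither gene passed the test on its level. The shares of Irf8 (8.78% and 8.82%) and Irf9 (11.4% and 10.5%) stayed close. Shares of a sum fall when 1 part of it rises, so they give the makeup of IRF mRNA and not separate changes.

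**Figure D4:**
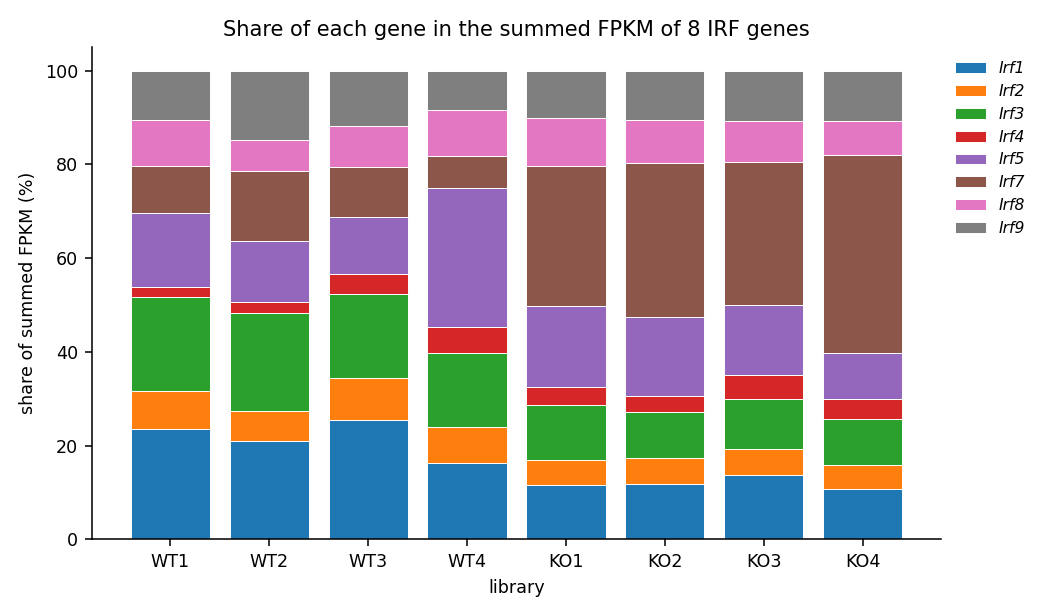
Percent of the summed FPKM of 8 IRF genes taken by each gene, per library. The Irf7 share reaches 14.9% at most in WT and lies between 29.9% and 42.2% in KO1 to KO4.

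The genes around the members were read from lists by role. Over all 14400 genes tested, 11.7% were called higher and 18.6% lower. Scaled to a sum of 1000000, 4217 were higher and 1180 lower, and by reads in listed genes 4185 and 1266. With the macrophage covariate the counts were 1076 and 1726, without WT1 and WT2 722 and 1036, and without WT4 and KO4 2026 and 2694. List counts under these settings are to be read beside those of all genes. Few ligands could be measured. Of 17 interferons and JAK-STAT cytokines, 2 passed the filter, 1 of which rose and 1 fell. Ctf1, which encodes the gp130 cytokine cardiotrophin, rose from 0.815 to 2.61 FPKM (1.26 ± 0.25, limma adjusted p = 0.00614). Lep, the leptin gene and itself an adipocyte marker, fell from 688 to 67.8 FPKM (-3.34 ± 0.16, limma adjusted p = 1.09e-05). Ifng had at most 5 reads in any library. Of the 17, 7 were not analysed here, the type I interferon genes on the list among them.

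Of 13 tested receptors, 5 rose and 2 fell, with a median log2 fold change of 0.26. Under both rescalings 9 were higher and none lower, and 2 were higher with the macrophage covariate, without WT1 and WT2 together, and without WT1, WT2 or KO3 alone (3 without KO1, KO2 or WT3). Il6ra, the interleukin-6 receptor that acts through STAT3, rose from 4.27 ± 1.19 to 10.3 ± 0.61 FPKM (1.21 ± 0.16, limma adjusted p = 0.00105). Ifngr1, a chain of the interferon-gamma receptor, rose by a log2 fold change of 0.41 (limma adjusted p = 0.00425). Ifnar1 and Ifnar2, the chains of the type I interferon receptor, had 0.13 and -0.04 (limma adjusted p = 0.383 and 0.791). Lifr, Il10ra and Lepr, receptors for leukemia inhibitory factor, interleukin-10 and leptin, were also called higher (0.39, 0.91 and 0.87, limma adjusted p = 0.0260, 0.0398 and 0.0317). These calls were lost in 9, 11 and 10 of 24 settings. Leaving out WT1, WT2 or KO3 alone ended each of the 3, as did leaving out WT4, KO1 or KO2 for Lifr, WT3, KO1 or KO2 for Il10ra, and WT3 or KO4 for Lepr. Cntfr, the ciliary neurotrophic factor receptor gene, was called lower (-0.96, limma adjusted p = 0.0424). This call was lost in 14 of the 23 settings in which Cntfr was tested, among them both rescalings. Leaving out any of WT1, WT2, WT3, KO1, KO2 and KO3 also ended it. Il11ra1 fell by 0.35 on the log2 scale, a call lost under both rescalings, without WT1 and WT2 and without WT4 and KO4. Of 4 Janus kinases, 1, Jak2, was called higher at 0.32 (limma adjusted p = 0.0425), and that call was lost in 12 of 24 settings, among them without any single library other than WT3 and KO1. Under both rescalings 3 of the 4 were higher.

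Of 13 inhibitors of STAT signalling, 3 rose and 1 fell. Without WT4 and KO4 the counts were 6 and 1, scaled to a sum of 1000000 they were 5 and 0, and with the macrophage covariate or without WT1 and WT2 they were 2 and 0. Usp18, an interferon-induced protease that removes ISG15 and blocks the type I receptor, was at 1.35, 2.36, 1.30 and 0.816 FPKM in WT and at 6.79, 8.17, 6.48 and 8.96 FPKM in the KO-labelled libraries (2.10 ± 0.22, limma adjusted p = 0.000350). Pias1, an inhibitor of STAT DNA binding, rose by 0.54 (limma adjusted p = 0.00367). The phosphatase gene Ptpn2 rose by 0.46, a call lost with the macrophage covariate and without WT1 and WT2. Ptpn11, another phosphatase gene, fell by 0.44 on the log2 scale, a call lost in 7 of 24 settings, among them without KO3 and under both rescalings. Socs3, the STAT3-induced inhibitor, was at 0.53 and did not pass (limma adjusted p = 0.136).

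Of 21 genes that activate IRFs, 5 rose and none fell, with a median of 0.22. The count of higher genes was 13 under both rescalings, 10 without WT4 and KO4, 8 without WT4, and 2 without any of WT1, WT2, WT3, KO2 and KO3 alone. Without WT1 and WT2 together 2 were higher and none lower, and with the macrophage covariate 2 were higher and 1 lower. The largest were the endosomal sensors of RNA and DNA, which signal to IRF7. Tlr7 was at 1.37, 1.32, 1.76 and 4.15 FPKM in WT and at 10.4, 10.4, 9.34 and 5.18 FPKM in the KO-labelled group (1.88 ± 0.33, limma adjusted p = 0.00388). Tlr9 was at 0.801, 0.672, 0.978 and 2.14 FPKM and at 4.75, 6.87, 5.70 and 3.29 FPKM (1.81 ± 0.28, limma adjusted p = 0.00228). In both, WT4 was the highest WT library and KO4 the lowest KO-labelled one, the order of the macrophage markers. Tlr4 (0.57) and Unc93b1 (0.83), the latter the chaperone of the endosomal receptors, were called at adjusted p = 0.0410 and 0.0477 by limma, and the calls were lost in 11 and 12 of 24 settings, among them, for both, without any of WT1, WT2, WT3, KO2 and KO3, and also without KO4 for Tlr4 and without KO1 for Unc93b1. Slc15a4, a lysosomal transporter gene, was the other gene called (0.38, limma adjusted p = 0.0481), a call lost in 13 settings, among them with KO1, KO2, KO3, WT1, WT2 or WT3 left out. Of 9 tested partner factors, 3 rose and none fell. Without WT4 the counts were 6 higher and 1 lower, without WT4 and KO4 they were 7 and 1, under both rescalings 5 and 0, and 1 was higher with the macrophage covariate or without WT1 and WT2. Nlrc5, the interferon-induced activator of MHC class I genes, rose from 4.35 ± 0.37 to 8.07 ± 1.03 FPKM (0.82 ± 0.10, limma adjusted p = 0.000795). Ikzf1 (0.72) and Etv6 (0.42) lost their calls with the macrophage covariate and without WT1 and WT2, and Ikzf1 also with the replicate block.

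Of 23 ISGF3-responsive genes, all 23 rose, with a median log2 fold change of 1.54 and a range of 0.78 to 2.23. In all 23 every KO-labelled library lay above every WT library. All 23 were called in each of the 24 settings. Oasl2, an antiviral protein of the oligoadenylate synthetase family, was at 3.53, 5.57, 3.67 and 3.84 FPKM in WT and at 14.9, 19.7, 17.8 and 19.3 FPKM in the KO-labelled libraries (2.0 ± 0.15, limma adjusted p = 6.35e-05). Zbp1, a sensor of nucleic acids in the Z form, rose from 2.40 ± 0.64 to 11.8 ± 1.80 FPKM (2.10 ± 0.16, limma adjusted p = 9.06e-05). Ifi44 rose from 0.949 ± 0.149 to 4.12 ± 0.77 FPKM and Oas1a from 3.77 ± 0.94 to 14.4 ± 1.68 FPKM (1.66 and 1.81, limma adjusted p = 0.000109 and 0.000115). The mean log2(FPKM + 0.5) of the list was 1.90, 2.32, 1.94 and 1.82 in WT1 to WT4 and 3.29, 3.69, 3.37 and 3.60 in KO1 to KO4, so WT4 was the lowest WT library and KO4 the second highest KO-labelled one. An earlier look at these libraries had already shown interferon-stimulated genes to be higher, so the list is no independent evidence of its direction.

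Of 19 tested genes known to respond to interferon-gamma and IRF1, 6 rose and 1 fell, with a median of 0.26. Under both rescalings 12 were higher and none lower, and without WT4 and KO4 5 were higher and 3 lower (5 and 2 without WT4). Without WT1 and WT2 the counts were 5 and 0. Tap1, the peptide transporter of MHC class I, rose from 6.76 ± 0.47 to 12.5 ± 1.10 FPKM (0.84 ± 0.08, limma adjusted p = 0.000270). The GTPase genes Irgm1, Igtp and Gbp3 rose by 0.95, 0.87 and 1.14 (limma adjusted p = 0.000797, 0.00217 and 0.00742). Genes of this kind share sequence within their families, and the sources used here do not say how reads were split between copies, so these 3 values are uncertain. Tapbp, which bridges that transporter and MHC class I, fell by 0.39 on the log2 scale (limma adjusted p = 0.0175), a call lost under both rescalings, quantile normalization, the macrophage covariate, without WT1, without KO3, and without WT1 and WT2. Of 18 STAT3-responsive genes, 6 rose and 2 fell, with a median of 0.18, and without WT4 and KO4 9 were higher and 2 lower. Without WT1 and WT2 the counts were 5 and 1. Lcn2, the iron-binding acute phase protein lipocalin 2, was at 2.33, 2.42, 2.53 and 3.69 FPKM in WT and at 14.8, 16.0, 12.8 and 17.2 FPKM in the KO-labelled libraries (2.29 ± 0.14, limma adjusted p = 3.40e-05). Myc (1.68), Cebpd (1.54) and Il4ra (0.95) rose as well (limma adjusted p = 0.000327, 0.00268 and 0.00193). These 3 encode 2 transcription factors and the interleukin-4 receptor chain. The 2 genes that fell were Lrg1, which encodes a secreted glycoprotein, and Ccnd1, the cyclin D1 gene (-0.78 and -0.32, limma adjusted p = 0.00650 and 0.0326). Lrg1 kept its call in all 24 settings, and Ccnd1 lost its call in 12, among them both rescalings and leaving out any of WT1, WT3, KO1, KO3 and KO4.

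Of 5 tested genes on a list of genes linked to IRF4, 1 rose and 3 fell. The list does not set targets of IRF4 apart from other linked genes. The lipase genes Lipe and Pnpla2, which release fatty acids during fasting and are on the adipocyte marker list too, fell by 0.69 and 0.51 on the log2 scale (limma adjusted p = 0.00867 and 0.0191). Kdm6b, a histone demethylase gene, fell by 0.60 (limma adjusted p = 0.00121). Ppargc1a, the coactivator that joins IRF4 in brown fat, rose from 0.422 to 0.841 FPKM (0.54, limma adjusted p = 0.0306). Of these, Kdm6b passed in all 24 settings. Lipe lost its call without WT1 and WT2. Pnpla2 lost its call in 10 settings, among them without WT1, WT2, KO2 or KO3, both rescalings, quantile normalization, the macrophage covariate and the replicate block, with a log2 fold change of -0.66 to -0.24 over all 24. Ppargc1a lost its call in 10 of the 23 settings in which it was tested. Among them were quantile normalization, the replicate block and leaving out WT1, WT3, WT4, KO2, KO3 or KO4.

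**Figure D5:**
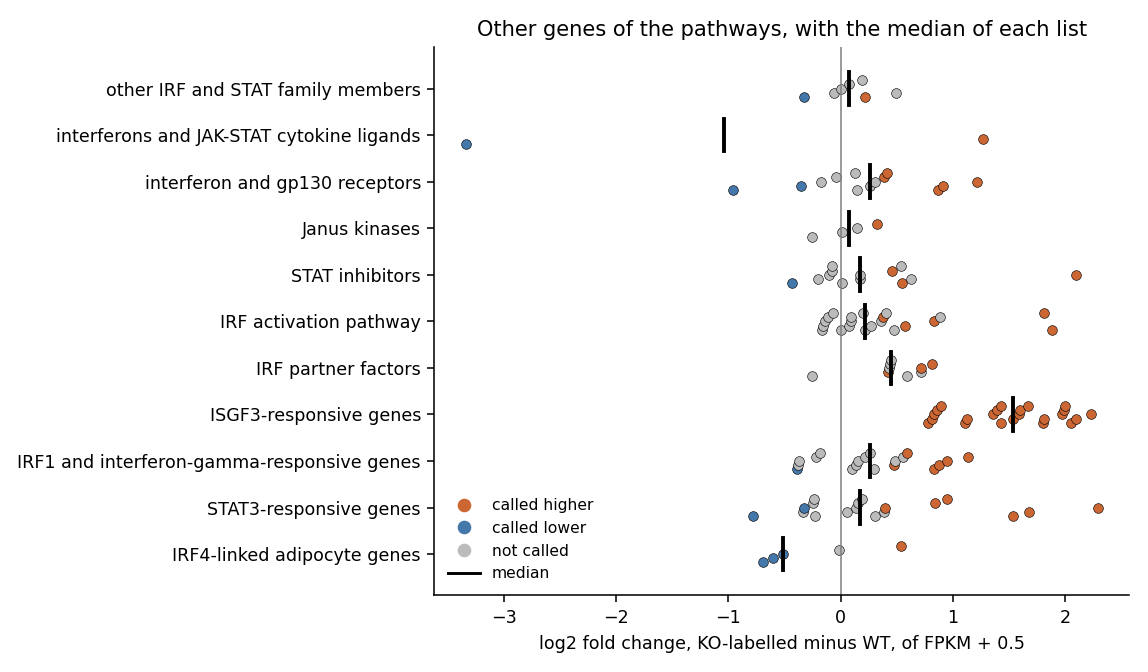
Log2 fold change, KO-labelled minus WT, of each tested gene in the pathway lists, ordered by role, with called genes marked and the median of each list. The 23 ISGF3-responsive genes all lie between 0.78 and 2.23, while the medians of the other lists with at least 4 tested genes lie between -0.51 and 0.45.

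For each called member, the 3 genes with the most similar profile over the 8 libraries were found among 10962 genes with a mean of at least 1 FPKM, by the root mean square difference of log2(FPKM + 0.5) after centring each gene on its own mean. Nearest to Irf7 were Usp18, Zbp1 and Nqo1, at 0.18, 0.21 and 0.21, against 1.23 for the size of its own profile. Nqo1 encodes a quinone reductase known as an NRF2 target, and it averaged 3.13 and 15.5 FPKM in WT and KO-labelled libraries. Nearest to Stat2 were Parp12, Sp100 and Adar, at 0.08, 0.09 and 0.10 against 0.42. All 3 of these are known as interferon-inducible, and their means went from 9.42 to 15.3, from 9.40 to 16.7 and from 3.78 to 6.01 FPKM. Irf9 had Gstp1, Stim1 and Shroom3 nearest, at 0.09, 0.10 and 0.10 against 0.40. Gstp1, a glutathione transferase gene, has near-identical copies, so its level is uncertain.

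Profiles nearest to the leukocyte members held other genes. Of the 3 nearest to Irf4, the first and the third were Tlr2 and Tpbgl, at 0.11 and 0.15 against 0.57. Tlr2, a receptor for bacterial lipoproteins, was at 2.29, 2.15, 3.01 and 5.30 FPKM in WT, with WT4 the highest as for Irf4. Nearest to Irf8 were Arrb2, Plcl2 and Susd3, at 0.11, 0.13 and 0.13 against 0.45, and Arrb2, a beta-arrestin gene, had WT4 as its highest WT library and KO4 as its lowest KO-labelled library. Stat3 had Dnajc7, Tmcc1 and Ip6k1 nearest, at 0.04, 0.04 and 0.05 against 0.16. All these profiles include the difference between the groups, which the 8 libraries share, so they describe likeness in these libraries only. The genes were picked for that likeness, so an order of libraries shared with the member, as in Tlr2 and Arrb2, follows from the choice.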

How the data were processed

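Per the labels' protocols, RNA was extracted with TRIzol, poly(A) RNA was captured, and cDNA was primed with random hexamers. The submitters' processing notes name HISAT2 2.0.5, featureCounts and mm10 as the build. Strand setting and annotation release are not given in the sources used here, so genes that overlap on opposite strands can share reads. The deposited values are FPKM, in 1 table of 28295 genes and 8 libraries, and 28255 gene IDs (99.9%) matched a reference symbol.

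Recovered reads are FPKM values turned back with GENCODE M21 exon lengths and the step sizes of low values, of which 97.9% lay within 0.02 reads of a whole number. FPKM denominators were 22.9 to 25.5 M reads (M, 1000000) in WT and 24.2 to 29.1 M in KO1 to KO4. FPKM values are not counts, so log2(FPKM + 0.5) was tested with limma 3.58.1 (R 4.3.3, limma-trend, robust, two-sided, no covariate) over the 14400 genes with a mean of at least 0.5 FPKM. Every fold change is that of FPKM + 0.5, which understates changes of low genes. In simulated data with 200 of 14400 genes changed, this fit recovered 77% of changes of 1 and 31% of changes of 0.5 on the log2 scale, with 6.90% false calls. Voom on the recovered reads, a count test used as an alternative, called 1760 genes higher and 2649 lower of 13832. Alternatives were 2 pseudocounts (0.1 and 1), 3 filters, 4 scalings, array weights, limma without trend, a macrophage covariate, a replicate block, voom and each library left out. Scaling to the reads in listed genes and leaving out WT1 with WT2 or WT4 with KO4 were added after the data were seen.

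The members and the 23 lists (11 of pathway genes, 12 of cell type markers) were chosen with earlier results of these data known. Of each pathway list, the text names up to 4 called genes with the smallest adjusted p, or, where none was called, the most highly expressed. Irf3, Stat6, Ifnar1, Ifnar2, Socs3, Tapbp, Il10ra, Lepr, Cntfr, Slc15a4, Lrg1, Ccnd1 and genes whose exons overlap a member were named outside this rule, after their values were seen. Promoter sequences are from RefSeq, and those of Irf2 and Irf7 leave out the last 13 and 57 bases, which lie within the GENCODE transcript. Python 3.11.15 was used with scipy 1.17.1 for exact tests, pandas 2.3.3 and numpy 2.4.6 for tables, and matplotlib 3.10.9 for plots. Some results are not reported here.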

Additional observations from a re-analysis of the deposited data

Results flagged for a closer look

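In 3 of 38 groups of 4 values examined (FPKM and level relative to the macrophage markers, by group), 1 library stood far from the other 3 by Dixon's criterion, which chance alone meets in about 1 in 20 groups. Irf9 was at 7.39 FPKM in WT2 and at 4.51 to 4.76 FPKM in the other WT libraries. Relative to the macrophage markers, Irf1 was at -2.12 in WT4 against -0.68 to -0.49 in WT1 to WT3, and Irf2 was at -3.15 in WT4 against -2.11 to -1.97. WT4 was the WT library with the highest macrophage marker level, and WT2 the one with the highest liver marker level. Each level relative to the markers in WT4 subtracts the same marker mean (5.33). The flags of Irf1 and Irf2, and the 38 groups, are therefore not independent.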

How the results depend on the processing

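Over 24 alternatives, Irf7, Irf9 and Stat2 kept their direction and call, and all 23 ISGF3-responsive genes stayed called higher. Members called higher numbered 3 with the macrophage covariate and 3 without WT1 and WT2, and 5 to 8 with each library left out in turn. Over all genes, those called higher were 1076 and lower 1726 with that covariate, 722 and 1036 without WT1 and WT2, 4217 and 1180 scaled to a sum of 1000000, and 4185 and 1266 by reads in listed genes. Median-of-ratios scaling gave 1778 and 2543, and quantile normalization 1833 and 2092. Leaving out 1 library gave 1089 (without WT1, and 1117 without KO3) to 1937 higher and 1858 to 2803 lower. Cul3 passed under both rescalings (0.36 and 0.33 on the log2 scale). The cause of these differences was not tested, except that fewer samples were fitted where libraries were left out.

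With the replicate number as a block, 1113 genes were higher and 1995 lower, 5 members were called higher, and Stat3 lost its call (adjusted p = 0.0529). The numbers do not pair the libraries: correlations of same-numbered deviations were -0.06, -0.13, 0.17 and -0.32, and no WT library correlated best with its own number. In simulated data with 4 libraries a group and 200 of 14400 genes changed, a change of 0.5 on the log2 scale was often missed. In the real libraries 30.4% of genes tested were called, a far larger share, so the simulated rate need not hold for them. Reads per member ran from 123 for Irf4 in WT1 to 4204 for Stat3 in KO1, so Irf4 has the largest counting error of the 9.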
